A study of Mus musculus with 5 samples.

Results

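Hemidesmosomes are the junctions that fasten the basal side of epithelial cells to the basement membrane. On the outside, integrin α6β4 (Itga6 and Itgb4) and collagen XVII (Col17a1) bind laminin-332, a laminin trimer that contains the α3 and β3 chains (Lama3 and Lamb3). On the inside, the plakins plectin (Plec) and dystonin (Dst) tie these receptors to keratin filaments, and the tetraspanin CD151 (Cd151) associates with the laminin-binding integrins. In the mammary gland, these junctions are built mainly by the basal cells that rest on the basement membrane. The genes described here are the 8 members Col17a1, Itga6, Itgb4, Dst, Plec, Cd151, Lama3 and Lamb3, found by symbol among the 12934 genes listed in the counts, and all 8 were among the 12483 genes tested. They were chosen by name and function, and with earlier results of these data known.

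The RNA came from EpH4 cells, a mouse mammary epithelial cell line, that stably expressed Cas9 and carried either a control sgRNA (sgControl, 3 libraries) or an sgRNA against the transcription factor gene Mef2d (sgMef2d, 2 libraries). Cells of both groups had been infected with a lentivirus for Cas9 and a lentivirus for the sgRNA and selected with blasticidin and puromycin, so the Cas9 background is shared. The study used more than 1 sgRNA against Mef2d, and the labels do not say which of them the sgMef2d libraries carried, nor whether the libraries of a group came from separate cultures. The p-values therefore measure the spread between these libraries, which may be technical. Library totals lay between 13601145 and 20498563 counts. Levels are given as CPM, counts scaled to a fixed library total after TMM normalization, and changes as log2 fold changes of sgMef2d against sgControl with their standard error (SE), tested by the quasi-likelihood test of edgeR. The p-values were adjusted over all genes tested by the Benjamini-Hochberg method, with a threshold of 0.05. Mef2d RNA itself reached 64.3, 76.9 and 71.5 CPM in sgControl and 64.2 and 65.8 CPM in sgMef2d (log2 fold change -0.12, SE 0.080, adjusted p = 0.400 from the edgeR test), a difference within the spread of the libraries, which passed without sgControl replicate 1 (-0.19, adjusted p = 0.00550, the lowest of the alternatives) and was -0.060 without sgControl replicate 2 (adjusted p = 0.770, the highest). RNA levels do not show whether the protein was lost. The study reported from an immunoblot that MEF2D protein was absent in its knockout cells.

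The epithelial label was read from marker genes. Of 11 markers of luminal mammary cells, 7 were listed, and their summed level was 2137 to 2229 CPM in sgControl and 2084 to 2165 CPM in sgMef2d, while Krt19, Elf5, Kit and Pgr were not listed. Of 9 markers of basal and myoepithelial cells, 6 were listed, with summed levels of 492 to 500 CPM in sgControl and 956 to 1014 CPM in sgMef2d. Most of this sum was Krt14, at 436 to 443 CPM in sgControl and 875 to 929 CPM in sgMef2d. Cnn1, Myh11 and Oxtr of that list were not listed. Of 7 fibroblast markers 5 were listed (641 to 765 CPM in sgControl and 603 to 645 CPM in sgMef2d, without Lum and Thy1), of 5 immune markers 1 (0.660 to 0.829 CPM and 0.883 to 1.28 CPM), and of 4 endothelial markers 0. In bulk RNA, a change in the number of cells of a type and a change in the RNA per cell cannot be told apart.

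sgControl replicate 1 stood apart from the other sgControl libraries in a way that moved with gene length, which matters for long genes such as Dst, Plec and Lama3. Against the mean of sgControl replicates 2 and 3, among 10 groups of genes by exon length, its median log2 difference was 0.15 in the group with the shortest exons and -0.13 in the group with the longest. The sgMef2d libraries had a like slope, from 0.13 and 0.15 in the shortest group to -0.13 and -0.14 in the longest. The plot of library differences by exon length shows the members in sgControl replicate 1, where Plec stood at -0.51, Dst at -0.48, Itgb4 at -0.31 and Lama3 at -0.27, below the median of their length. For each member, the change is therefore also given without that library and with the trend of each library with exon length and GC content removed. The fit without sgControl replicate 1 alone does not remove the length slope, since the sgControl libraries that remain differ from both sgMef2d libraries along it. The values with both changes together are given for Dst, Plec, Cd151, Itga6 and Lama3.

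**Figure D1:**
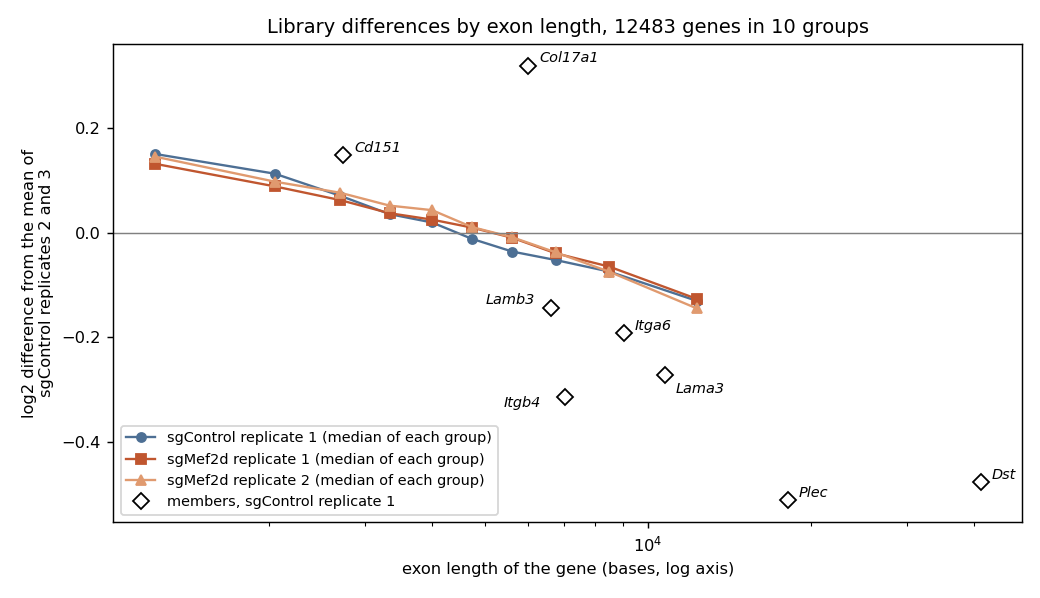
Median log2 difference of sgControl replicate 1 and the 2 sgMef2d libraries from the mean of sgControl replicates 2 and 3 (y) against exon length in bases (x, log axis) for 12483 genes in 10 groups of length. The 3 lines fall together from above 0 to below 0, and the diamonds, the 8 members in sgControl replicate 1, lie below them for all members but Col17a1 and Cd151.

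Among the members, 4 of 8 passed the threshold, 3 higher (Col17a1, Itgb4 and Lamb3) and 1 lower (Dst) in sgMef2d cells. Over all genes tested, 7.95% passed in either direction, 3.67% higher and 4.28% lower. The median log2 fold change of the members was 0.21, and their median absolute log2 fold change was 0.27, as against 0.0031 and 0.12 over all genes tested. In 6 of the 8 members the libraries of the groups did not overlap, which held for 41.1% of all genes tested. Without sgControl replicate 2, 2 members passed (Col17a1 and Itgb4, beside 4.84% of all genes), and without sgMef2d replicate 1 or 2 only Col17a1 did (beside 1.88% and 1.83%). Without sgControl replicate 1 there were 5 members past the threshold, beside 29.4% of all genes, and without sgControl replicate 3 there were 5, beside 6.51%. With the length and GC trend removed 6 members passed, beside 10.5% of all genes, and with sgControl replicate 1 also left out 6, beside 24.9%. DESeq2 called 3 members, beside 6.13% of all genes, and a replicate block 5, beside 10%. The other normalizations, filters and forms of the test called 4 or 5 members, beside 7.95%, 7.88%, 7.92%, 7.68%, 8.12%, 7.87% and 7.55% of all genes for RLE, upper quartile, library totals, no filter, the filter at 1 CPM, the legacy form and limma-voom.

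**Figure D2:**
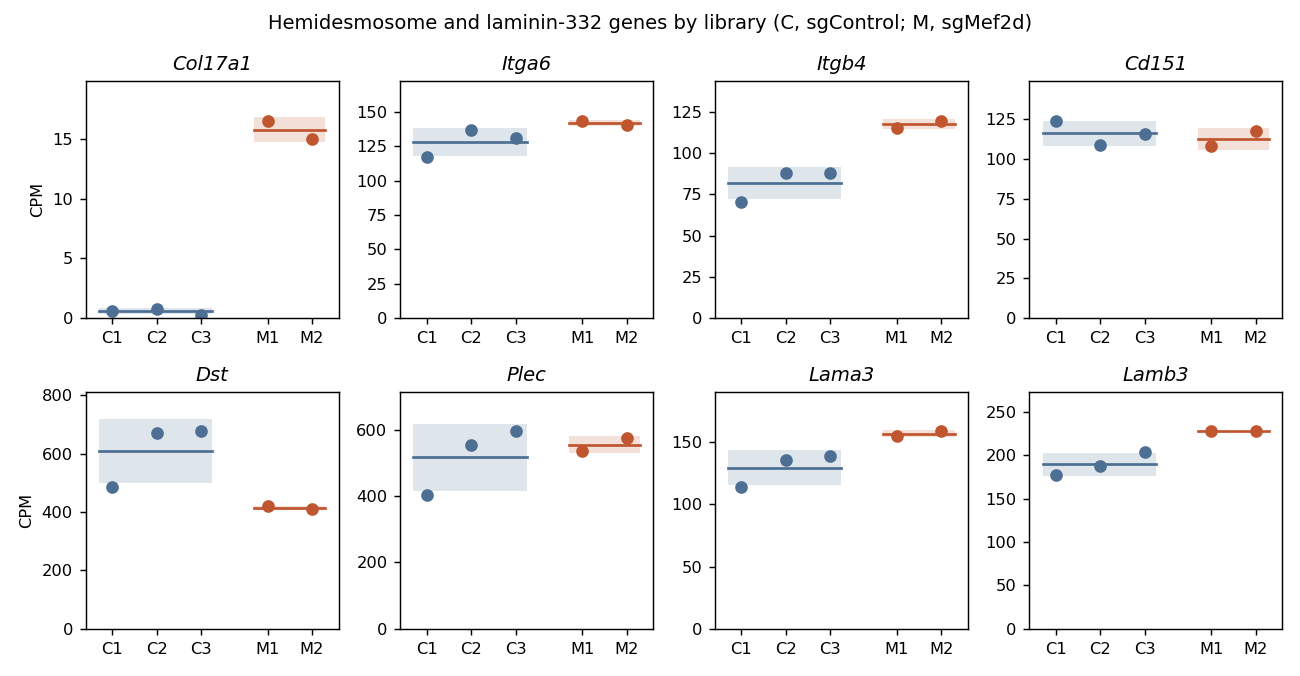
CPM of each member (y, from 0, a scale for each panel) in each library (x: C1 to C3, sgControl replicates; M1 and M2, sgMef2d replicates), with lines for the group means and bands for 1 SD. Col17a1 is near 0 in every sgControl library and above 15 in both sgMef2d libraries, Dst is lower in both sgMef2d libraries, and Plec and Cd151 overlap.

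Of the receptors, Col17a1, which encodes the transmembrane collagen XVII, showed the largest change of the members. Col17a1 (ENSMUSG00000025064.15, chromosome 19 of GRCm38, 47646344 to 47692094, minus strand) had 13, 11 and 4 counts in sgControl replicates 1, 2 and 3 and 281 and 223 counts in sgMef2d replicates 1 and 2. On the scale of levels these were 0.634, 0.780 and 0.293 CPM against 16.54 and 15.02 CPM. The sgControl libraries were thus all close to the limit of detection, and both sgMef2d libraries were far above them. sgControl averaged 0.569 ± 0.250 CPM (SD, n = 3), sgMef2d averaged 15.8 ± 1.08 CPM (SD, n = 2), and the log2 fold change came to 4.75 (SE 0.217, 95% interval 4.27 to 5.23, adjusted p = 3.37e-07 from the edgeR test). The size of the fold rests on the few counts of the sgControl libraries, and the log2 fold change lay between 4.49 and 4.97 over the alternatives, with 4.85 without sgControl replicate 1 and 4.70 with the length and GC trend removed. Col17a1 passed the threshold in 16 of 16 alternatives, with adjusted p values from 1.22e-75 to 2.01e-05. No 50-base word of its transcripts occurs in a transcript of another gene.

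Promoter windows, from 250 bases before to 50 after a transcription start, were found in RefSeq (build GRCm38.p6) for 4 of 7 members looked up, Col17a1, Dst, Lamb3 and Cd151. The window of Col17a1 is shown because this gene moved most, those of Dst because its counts pool transcripts from separate starts, and the upstream window of Lamb3 as that of a laminin chain that rose. They lie at chr19:47691993-47692292 (minus strand), chr1:34011345-34011644, chr1:34160010-34160309 and chr1:193301744-193302043 (plus strand), and each is written 5′ to 3′ with E-boxes (CANNTG) in capitals.
Col17a1: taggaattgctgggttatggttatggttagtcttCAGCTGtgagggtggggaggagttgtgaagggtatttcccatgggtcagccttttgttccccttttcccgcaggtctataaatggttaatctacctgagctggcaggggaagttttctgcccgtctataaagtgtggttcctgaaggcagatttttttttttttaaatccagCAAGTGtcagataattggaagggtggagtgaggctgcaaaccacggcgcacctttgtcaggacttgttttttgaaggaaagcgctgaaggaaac
Dst, upstream start: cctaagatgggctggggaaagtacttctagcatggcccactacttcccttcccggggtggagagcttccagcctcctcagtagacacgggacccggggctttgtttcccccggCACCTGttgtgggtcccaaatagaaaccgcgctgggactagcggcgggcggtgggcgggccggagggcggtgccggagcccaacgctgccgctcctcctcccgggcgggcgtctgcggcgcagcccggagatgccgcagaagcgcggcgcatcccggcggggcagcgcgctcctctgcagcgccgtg
Dst, downstream start: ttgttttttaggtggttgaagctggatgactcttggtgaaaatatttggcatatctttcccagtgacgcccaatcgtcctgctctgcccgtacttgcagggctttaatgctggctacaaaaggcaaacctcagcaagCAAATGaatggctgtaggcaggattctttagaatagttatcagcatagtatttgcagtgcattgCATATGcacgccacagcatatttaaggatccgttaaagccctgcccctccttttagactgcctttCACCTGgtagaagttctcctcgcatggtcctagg
Lamb3: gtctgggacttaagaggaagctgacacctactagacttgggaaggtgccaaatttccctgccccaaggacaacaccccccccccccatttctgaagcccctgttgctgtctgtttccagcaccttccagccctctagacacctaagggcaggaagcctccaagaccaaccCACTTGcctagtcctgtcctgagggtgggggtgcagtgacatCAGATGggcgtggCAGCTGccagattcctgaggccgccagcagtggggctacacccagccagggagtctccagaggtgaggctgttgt
The E-box, a short palindromic motif read on both strands, occurred 2 times in the Col17a1 window, 1 and 3 times in the Dst windows and 3 times in the Lamb3 window, and 72.3% of all 32851 windows held at least 1. The upstream Dst window had a GC content of 70.3% and 4 matches to the GC box (GGGCGG, on either strand), which 35.7% of all windows held. The other 3 windows had GC contents between 46.0% and 59.3% and 0 GC boxes. Read on both strands, none of these 4 windows held the AP-1 motif (TGANTCA, in 7.81% of all windows), the TEAD motif (GGAATG, in 14.7%) or the MEF2 consensus (in 3.19%). A second Lamb3 window, at chr1:193301993-193302292 (plus strand) and not printed, held 1 TEAD match, at -167 from its start site, and 2 E-boxes. No match says only that these letters are not in the window.

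Itgb4, which encodes the integrin β4 subunit found mainly in hemidesmosomes, was higher in sgMef2d cells. Itgb4 (ENSMUSG00000020758.15, chromosome 11, 115974709 to 116008412) reached 70.5, 87.6 and 87.7 CPM in sgControl and 115 and 120 CPM in sgMef2d. Both sgMef2d libraries lay above all sgControl libraries. sgControl averaged 81.9 ± 9.88 CPM (SD, n = 3), sgMef2d averaged 117 ± 2.96 CPM (SD, n = 2), and the log2 fold change came to 0.52 (SE 0.089, 95% interval 0.33 to 0.72, adjusted p = 0.00438 from the edgeR test). The log2 fold change was 0.42 without sgControl replicate 1 and 0.47 with the length and GC trend removed, both past the threshold. It lost its call without sgMef2d replicate 1 (adjusted p = 0.0543) or 2 (adjusted p = 0.0834), and the adjusted p lay between 7.77e-12 and 0.0834 over all alternatives.

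Its partner Itga6 (ENSMUSG00000027111.15, chromosome 2, 71745616 to 71858416), which encodes the α6 subunit and can also pair with β1, did not pass the threshold. Itga6 reached 117, 137 and 131 CPM in sgControl and 144 and 141 CPM in sgMef2d. The sgMef2d libraries lay above the sgControl libraries, the nearest of them by a few CPM. Its log2 fold change was 0.15 (SE 0.071, 95% interval -0.0067 to 0.31, adjusted p = 0.235 from the edgeR test). With the length and GC trend removed it was 0.21 and passed (adjusted p = 0.0230), without sgControl replicate 1 it was 0.086 and did not pass (adjusted p = 0.150), and the adjusted p ranged from 0.000718 to 0.634 over the alternatives. With the trend removed and sgControl replicate 1 also left out, Itga6 stood at 0.18 and passed (adjusted p = 0.000718). Itga6 shares 5.31% of its 50-base transcript words with other genes, chiefly Gm29397.

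Cd151 (ENSMUSG00000025510.14, chromosome 7, 141467392 to 141471473), the tetraspanin of the group, had 124, 109 and 115 CPM in sgControl and 108 and 117 CPM in sgMef2d. These values overlapped between the groups. The log2 fold change was -0.045 (SE 0.072, 95% interval -0.20 to 0.11, adjusted p = 0.763 from the edgeR test), it turned positive without sgControl replicate 1 (0.0062) or sgMef2d replicate 1 (0.011), it was -0.11 with the length and GC trend removed and -0.073 with sgControl replicate 1 also left out, and it passed the threshold in 0 of 16 alternatives.

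Of the plakins, Dst, which encodes dystonin and includes the epithelial form that binds collagen XVII and keratins, was lower in sgMef2d cells. Dst (ENSMUSG00000026131.19, chromosome 1, 33908225 to 34308661) reached 484, 671 and 676 CPM in sgControl and 420 and 410 CPM in sgMef2d. Both sgMef2d libraries lay below all sgControl libraries, with sgControl replicate 1 nearest to them. sgControl averaged 610 ± 109 CPM (SD, n = 3) and sgMef2d 415 ± 7.05 CPM (SD, n = 2), which is 67.9% of the sgControl level, and the log2 fold change was -0.56 (SE 0.119, 95% interval -0.82 to -0.29, adjusted p = 0.0159 from the edgeR test). Dst has 41155 bases of annotated exon in 20 transcripts, and the counts per gene do not separate its epithelial, muscle and neuronal forms. With the length and GC trend removed, the log2 fold change was -0.38 (adjusted p = 0.000225). It was -0.70 without sgControl replicate 1 (adjusted p = 7.30e-34) and -0.40 with both changes together (adjusted p = 1.65e-17), and the call was lost without sgControl replicate 2 (adjusted p = 0.0513), without sgMef2d replicate 1 (0.125) or 2 (0.177) and in DESeq2 (0.0619), and over all alternatives the adjusted p lay between 7.30e-34 and 0.177.

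Plec, which encodes plectin, the plakin that binds the β4 subunit, showed no change past the threshold. Plec (ENSMUSG00000022565.15, chromosome 15, 76170974 to 76232574) had 402, 552 and 595 CPM in sgControl and 536 and 574 CPM in sgMef2d. Both sgMef2d values lay inside the range of the sgControl libraries, which sgControl replicate 1 widened at the lower end. The log2 fold change was 0.11 (SE 0.127, 95% interval -0.17 to 0.38, adjusted p = 0.674 from the edgeR test), and it turned to -0.048 without sgControl replicate 1 (adjusted p = 0.348, 0.0555 to 0.950 over all alternatives). With the length and GC trend removed it was 0.13 (adjusted p = 0.171), and with both changes together 0.076 (adjusted p = 0.0721). Of its 22 annotated transcripts 21 are coding, and 205 of its exon bases are shared with Parp10 on the same strand.

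Of the α3 and β3 chains of laminin-332, Lamb3 rose and Lama3 was just short of the threshold. Lamb3 (ENSMUSG00000026639.18, chromosome 1, 193207699 to 193343878), which encodes the β3 chain, reached 177, 187 and 204 CPM in sgControl and 227.3 and 227.5 CPM in sgMef2d. The sgMef2d libraries lay above all sgControl libraries and were nearly equal to each other. sgControl averaged 189 ± 13.6 CPM (SD, n = 3), sgMef2d averaged 227 ± 0.0935 CPM (SD, n = 2), and the log2 fold change came to 0.26 (SE 0.066, 95% interval 0.12 to 0.41, adjusted p = 0.0332 from the edgeR test). The log2 fold change of Lamb3 was 0.22 without sgControl replicate 1 and 0.25 with the length and GC trend removed, both past the threshold. The call was lost when sgControl replicate 2 (adjusted p = 0.120) or sgMef2d replicate 1 (0.259) or 2 (0.289) was left out. Over all alternatives its adjusted p lay between 8.77e-07 and 0.289, with log2 fold changes between 0.22 and 0.32.

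Lama3 (ENSMUSG00000024421.16, chromosome 18, 12333819 to 12583013), which encodes the α3 chain that integrins recognise, had 114, 136 and 139 CPM in sgControl and 155 and 159 CPM in sgMef2d. The groups did not overlap, and sgControl replicate 1 was the lowest library. The log2 fold change was 0.28 (SE 0.082, 95% interval 0.099 to 0.46, adjusted p = 0.0624 from the edgeR test). With the length and GC trend removed and sgControl replicate 1 also left out, it was 0.31 (adjusted p = 1.13e-08). It passed the threshold in 6 of 16 alternatives, among them with the length and GC trend removed (0.34, adjusted p = 0.000713), without sgControl replicate 1 (0.19, adjusted p = 0.000371) and without sgControl replicate 3 (0.33, adjusted p = 0.0337), and over all alternatives the adjusted p lay between 1.13e-08 and 0.396.

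**Figure D3:**
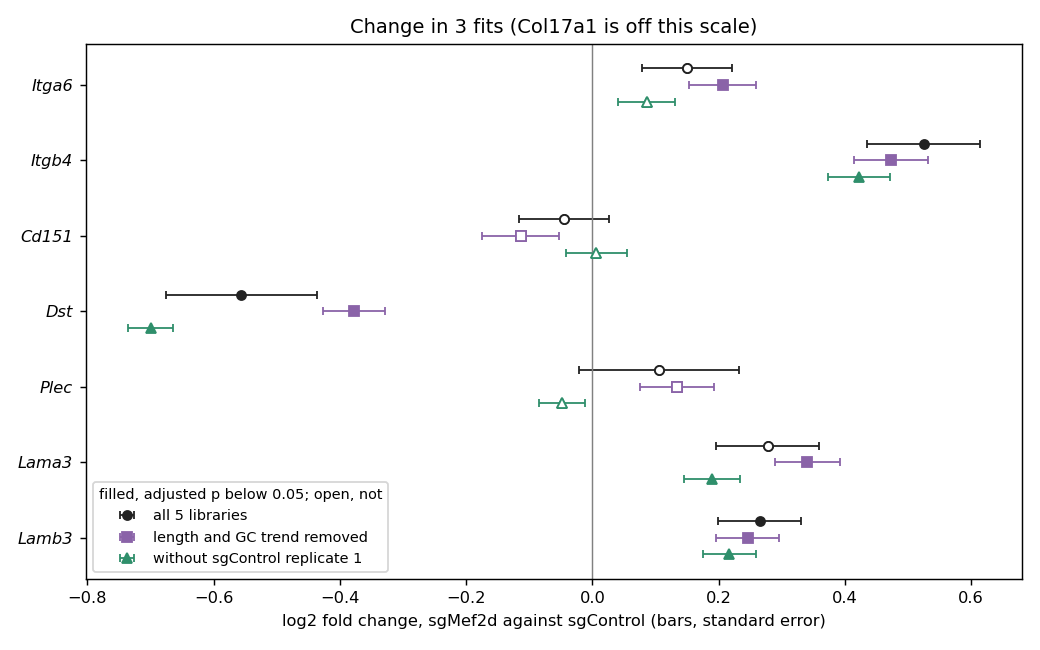
Log2 fold change of sgMef2d against sgControl (x, bars show the standard error) for 7 members (y) in 3 fits, with filled symbols for an adjusted p below 0.05 and open symbols otherwise. Dst is below 0 and Itgb4, Lama3 and Lamb3 are above 0 in all 3 fits, and Plec and Cd151 change sign without sgControl replicate 1. Col17a1, at 4.75, is off the scale.

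Levels of different genes were compared per length, as CPM per kilobase of annotated exon. In sgControl cells Cd151 was the highest of the 8 members at 42.3 ± 2.83 (SD, n = 3), followed by Lamb3 at 28.6 ± 2.05 and Plec at 28.5 ± 5.59. Dst (14.8 ± 2.66), Itga6 (14.2 ± 1.12), Lama3 (12.1 ± 1.28) and Itgb4 (11.7 ± 1.41) followed, and Col17a1 was the lowest at 0.0947 ± 0.0416 CPM per kilobase. The bands of 1 SD overlapped for Lamb3 and Plec and for each pair of neighbours from Dst to Itgb4. In sgMef2d cells Itgb4 rose from rank 7 to rank 4 of the 8 members at 16.7 ± 0.422 CPM per kilobase (SD, n = 2) and Dst fell from rank 4 to rank 7 at 10.1 ± 0.171, while Col17a1, at 2.63 ± 0.179, was still the lowest. With the length of the longest transcript in place of all exons, Itga6 stood above Dst in sgControl and Itgb4 above Lama3, while Cd151, Lamb3 and Plec kept the first 3 places. By that length Itgb4 moved only from rank 6 to rank 5 and Dst from rank 5 to rank 6.

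**Figure D4:**
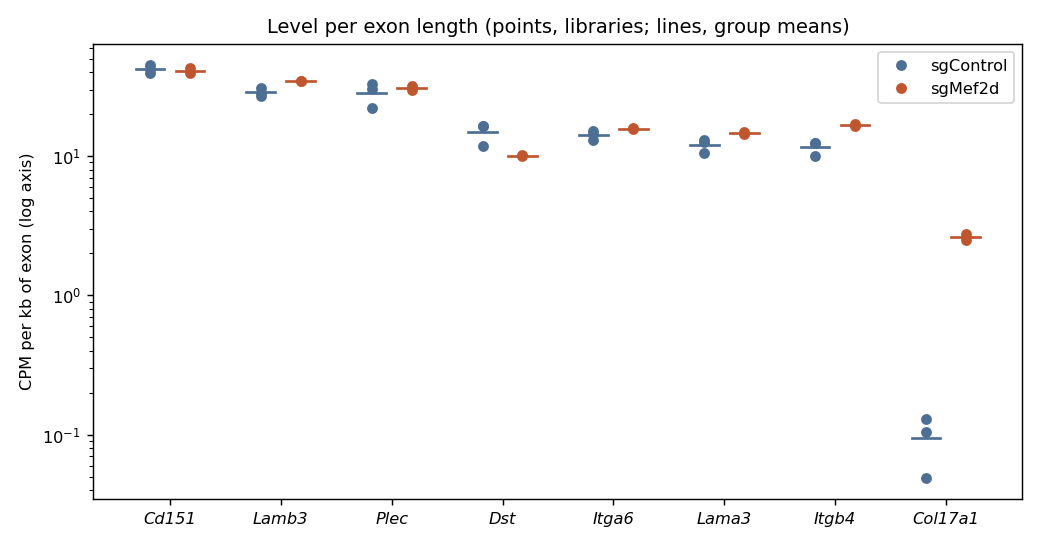
CPM per kilobase of exon (y, log axis) of the 8 members (x), with a point for each library and a line for each group mean (sgControl, blue; sgMef2d, orange). Col17a1 lies far below the other genes in both groups and is the gene whose groups lie farthest apart.

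Within the integrin and the laminin, the RNA of the subunits was compared in each library as a log2 ratio of levels per exon length, with no test. Itga6 to Itgb4 was 0.37, 0.28 and 0.21 in sgControl replicates 1, 2 and 3 and -0.047 and -0.13 in sgMef2d replicates 1 and 2, a difference of the means of -0.38. All sgControl libraries thus held more Itga6 than Itgb4 RNA per exon length and both sgMef2d libraries less. With the length of the longest transcript Itga6 exceeded Itgb4 in all 5 libraries. The difference between the groups cannot move with the length used, but it is not corrected for the length and GC trend of the libraries. With that trend removed, the log2 fold changes of Itga6 (0.21) and Itgb4 (0.47) lay nearer to each other than in the main fit (0.15 and 0.52). Lama3 to Lamb3 was -1.34, -1.17 and -1.25 in sgControl and -1.25 and -1.22 in sgMef2d. These values overlapped, and the means differed by 0.015. With the trend removed, the log2 fold changes were 0.34 for Lama3 and 0.25 for Lamb3, where the main fit gave 0.28 and 0.26. The exact permutation test over 3 and 2 libraries cannot reach 0.05 here.

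Genes that work beside the hemidesmosome were read from 4 lists chosen by function. Of 22 other laminin and basement membrane genes, 15 were listed and 13 tested, and 2 passed the threshold, both lower, beside 4.28% of all genes tested. Lama5, which encodes the α5 chain of the laminins that are widespread in epithelia, fell by 0.30 on the log2 scale, with averages of 696 ± 75.4 CPM in sgControl (SD, n = 3) and 565 ± 10.9 CPM in sgMef2d (SD, n = 2; SE 0.083, adjusted p = 0.0494 from the edgeR test). That value lay at the threshold: the call was lost in 8 of 16 alternatives, among them limma-voom (adjusted p = 0.0554), the legacy form (0.0503), the filter at 1 CPM (0.0515) and the fits without sgControl replicate 2 (0.167) or 3 (0.113) or sgMef2d replicate 1 (0.312) or 2 (0.289), between 3.58e-17 and 0.312 over all alternatives. Col4a5, which encodes a collagen IV chain, fell with a log2 fold change of -0.44 (SE 0.077, adjusted p = 0.00558 from the same test) and lost its call without sgMef2d replicate 1 (adjusted p = 0.0712) or 2 (0.103), between 1.19e-16 and 0.103 over all alternatives. Lamb1 (-0.16) and Lamc1 (-0.033), whose chains join α5 in these laminins, did not pass, but both passed without sgControl replicate 1, at -0.26 (adjusted p = 1.10e-07, the lowest of the alternatives, whose highest was 0.688) and -0.18 (adjusted p = 0.000184, the lowest, whose highest was 0.993). With the length and GC trend removed they stood at -0.11 (adjusted p = 0.256) and -0.0019 (adjusted p = 0.993) and did not pass, and with sgControl replicate 1 also left out both passed, at -0.15 (adjusted p = 0.00110) and -0.11 (adjusted p = 0.0213). Without sgControl replicate 3 Lamb1 stood at -0.080 (adjusted p = 0.642). The median log2 fold change of the 13 genes was -0.073.

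Of 15 other laminin receptors and tetraspanins, 14 were tested and 2 passed, both higher, beside 3.67% of all genes tested. Sdc1, which encodes the proteoglycan syndecan-1, rose by 0.38 on the log2 scale (SE 0.055, adjusted p = 0.00177 from the edgeR test). Its averages were 272 ± 7.36 CPM in sgControl (SD, n = 3) and 354 ± 6.85 CPM in sgMef2d (SD, n = 2). It lost its call without sgMef2d replicate 2, where the log2 fold change was 0.35. Over the alternatives that kept both sgMef2d libraries, its adjusted p lay between 6.04e-16 and 0.0148. Cd53, a tetraspanin known from leukocytes, had 12, 7 and 2 counts in sgControl and 54 and 46 counts in sgMef2d (log2 fold change 2.83, SE 0.353, adjusted p = 0.000721 from the same test). Itga3 and Itgb1, the subunits of the other main receptor of laminin-332, had log2 fold changes of -0.00091 (SE 0.074, 95% interval -0.16 to 0.16) and -0.10 (SE 0.058, 95% interval -0.23 to 0.024), which did not pass. Itgb1 passed without sgControl replicate 1 (-0.12, adjusted p = 0.00296, between 0.000983 and 0.712 over all alternatives), and Itga3 changed sign in 6 of 16 alternatives. Itga3 passed in 1 alternative, without sgControl replicate 1 and with the length and GC trend removed (-0.084, adjusted p = 0.0271, between 0.0271 and 0.998 over all alternatives). The median of the 14 genes was 0.057.

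Of 14 other plakins and keratin-anchoring partners, 12 were tested and 6 passed, 4 higher and 2 lower, beside 3.67% and 4.28% of all genes tested. The keratin pair of basal cells, Krt14 and Krt5, rose. Krt14 reached 443, 436 and 439 CPM in sgControl and 875 and 929 CPM in sgMef2d, a log2 fold change of 1.04 (SE 0.056, adjusted p = 1.68e-06 from the edgeR test), although 13.9% of the 50-base words of its transcripts are shared with other genes, most often Krt16. Krt5 had 3, 0 and 1 counts in sgControl and 260 and 211 counts in sgMef2d, so a fold has no firm base, and its adjusted p was 3.88e-08 in the same test. Krt5 shares 8.52% of its 50-base words with other genes, chiefly Krt6a, and Krt17 shares 4.0%, chiefly with Krt14. Krt17 rose as well, from 6, 8 and 17 counts to 50 and 51 counts, 2.29 higher on the log2 scale (adjusted p = 0.00438), which was 1.81 without sgControl replicate 1 and 2.95 without sgControl replicate 3, and it lost its call without sgMef2d replicate 2 (adjusted p = 0.0669, between 4.60e-11 and 0.0669 over all alternatives). Fermt1, which encodes the integrin activator kindlin-1, fell by 0.43 on the log2 scale, with averages of 66.9 ± 2.30 CPM in sgControl (SD, n = 3) and 49.7 ± 2.15 CPM in sgMef2d (SD, n = 2; SE 0.068, adjusted p = 0.00318 from the same test), and lost its call without sgMef2d replicate 1 (adjusted p = 0.0872, between 4.22e-09 and 0.0872 over all alternatives). The other two, named after their values had been seen, were Ppl, which encodes periplakin (0.47), and Krt18 (-0.26). Dsp, which encodes the desmosomal plakin, differed by 0.38 on the log2 scale (adjusted p = 0.0579) and passed in 7 of 16 alternatives, among them without sgControl replicate 1 (0.24, adjusted p = 1.26e-06), without sgControl replicate 3 (0.47, adjusted p = 0.0162) and with the length and GC trend removed (0.44, adjusted p = 0.00130), between 3.73e-11 and 0.301 over all alternatives. Macf1, a plakin that links actin and microtubules, differed by -0.21 on the log2 scale (adjusted p = 0.240) and passed without sgControl replicate 1 (-0.33, adjusted p = 4.24e-14, the lowest of the alternatives, whose highest was 0.660). With the length and GC trend removed Macf1 was at -0.048 (adjusted p = 0.583), and with sgControl replicate 1 also left out at -0.075 (adjusted p = 0.0569), neither past the threshold. The median of the 12 genes was 0.090.

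Of the 6 basal and myoepithelial markers listed, 4 were higher past the threshold, as against 3.67% of all genes tested. These were Krt5, Krt14 and Krt17, which the list before also holds, and Trp63, which encodes p63, at a log2 fold change of 0.74. Acta2, a smooth muscle actin of myoepithelial cells, was lower (-0.81), and Mylk, a kinase of smooth muscle contraction, did not pass (-0.32). Of the 7 luminal genes listed 0 were higher and 1 was lower (Krt18). Of the 5 fibroblast genes 1 was higher (Dcn, 1.23) and 1 lower (Col1a2, -0.54), and the 1 immune gene listed did not pass. Over all genes tested, 3.67% were higher and 4.28% lower. The part of such markers in the results for Col17a1 and Itgb4 was not tested.

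Of 12 proteases that process laminin-332 or shed collagen XVII, 9 were tested and 1 passed, in the lower direction, beside 4.28% of all genes tested. Mmp14, a membrane-bound matrix metalloprotease, fell by 0.29 on the log2 scale, with averages of 135 ± 5.05 CPM in sgControl (SD, n = 3) and 111 ± 3.31 CPM in sgMef2d (SD, n = 2; SE 0.061, adjusted p = 0.0157 from the edgeR test), a call lost when sgControl replicate 2 (adjusted p = 0.0707) or sgMef2d replicate 1 (0.223) or 2 (0.134) was left out, between 1.65e-08 and 0.223 over all alternatives. Bmp1, a protease that trims laminin-332 chains, stood at a log2 fold change of -0.21 (SE 0.069, adjusted p = 0.0980) and passed without sgControl replicate 1 (-0.26, adjusted p = 5.54e-06, the lowest of the alternatives, whose highest was 0.519) and with the length and GC trend removed. The median of the 9 genes was -0.0022.

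**Figure D5:**
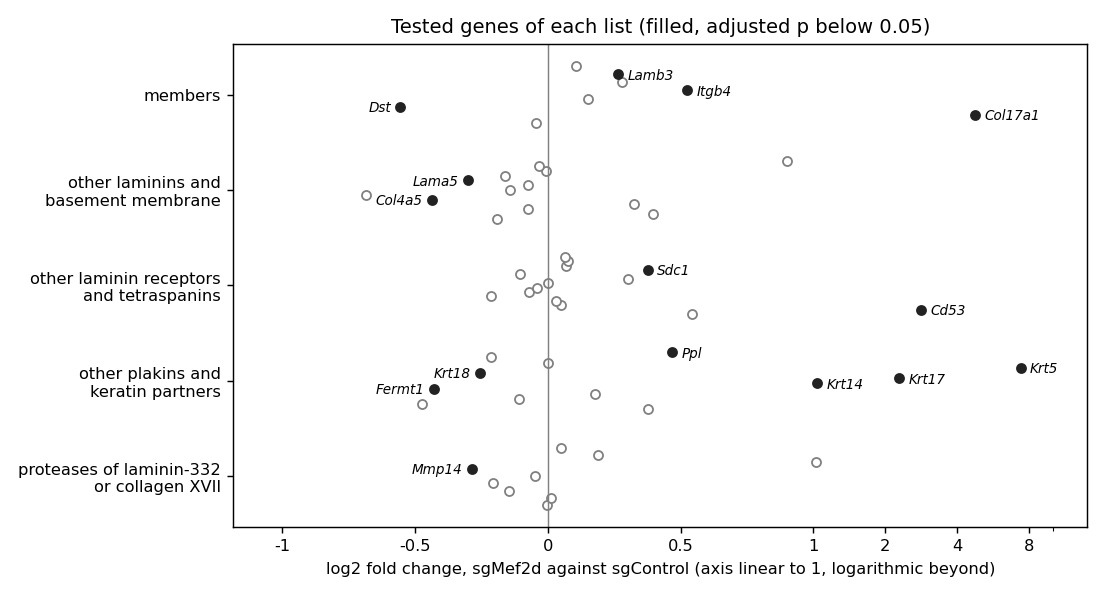
Log2 fold change of sgMef2d against sgControl (x, linear to 1 and logarithmic beyond) for the tested genes of the members and the 4 other lists (y), filled and named where the adjusted p was below 0.05. Col17a1, Krt5, Krt17, Krt14 and Cd53 lie farthest to the right, and the position of Krt5 depends on the prior count because its sgControl libraries held 3, 0 and 1 counts.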

How the data were processed

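RNA of 3 sgControl and 2 sgMef2d EpH4 libraries, poly(A)-selected and strand-marked, was measured, grouped by the sample titles. The authors processed the reads with FASTQC, STAR on GRCm38 and RSeQC, and the labels also list CASAVA and Subread. They deposited raw counts per gene without normalization. Whether strand was used in counting is not given in the sources used here, so reads of a member and an antisense gene cannot be told apart: Gm10575 covers 7.04% of the exon bases of Cd151 and B230344G16Rik covers 7.66% of those of Itgb4, and these genes had at most 45 and 11 counts per library. All 12934 identifiers matched GENCODE M21, 12811 with the same version. Every gene listed reached 11 counts in some library, so the authors had already removed genes with low counts.

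On the deposited counts, TMM factors and the bias-adjusted quasi-likelihood test were computed with edgeR 4.0.16 (R 4.3.3) over all 12483 genes that passed its default expression filter by group. Intervals use the moderated degrees of freedom. Alternatives were other normalizations and filters, the legacy form, DESeq2 1.42.0, limma-voom (limma 3.58.1), a replicate block, leaving out each library, and removal of each library's trend with exon length and GC content (loess, span 0.3). The last was also combined with leaving out sgControl replicate 1, which was chosen after seeing the data. Level differences by exon length used log2 of CPM plus 0.1. A count of 3 corresponded to 0.146 to 0.221 CPM, and intervals cover counting and replicate error as fitted. The scripts were tested on simulated counts. There the main test recovered 48 of 66 changes of 0.5 on the log2 scale, 57 of 65 of 1 and 64 of 65 of 1.5. It also called 18 genes that had been simulated without a change.

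The members and lists were chosen with earlier results of these data known. Named were the members, Mef2d, a fixed set of their partners (Itga3, Itgb1, Lama5, Lamb1, Lamc1, Dsp, Macf1, Krt5, Krt14 and Bmp1) and, of each list, up to 4 genes past the threshold with the smallest p. The text also names cell type markers and a few genes chosen after their values were seen. An item that this rule covers is not reported here.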

Additional observations from a re-analysis of the deposited data

How the results depend on the processing

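Over 16 alternatives, the 8 members gave 128 values, of which 108 kept their direction and their side of the threshold, 9 lost the call, 8 gained it and 3 turned direction (Cd151 to 0.0062 without sgControl replicate 1 and 0.011 without sgMef2d replicate 1, and Plec to -0.048 without sgControl replicate 1). Of their partners, Itga3 turned to 0.0062 with upper quartile normalization, 0.0025 in limma-voom, 0.039 with the replicate block, and 0.035, 0.035 and 0.029 without sgControl replicate 2, sgControl replicate 3 or sgMef2d replicate 1, and Lamc1 to 0.090 with the replicate block and 0.013 and 0.075 without sgControl replicate 2 or 3. Leaving out each library gave -0.11 to 0.011 for Cd151, -0.048 to 0.22 for Plec, -0.072 to 0.035 for Itga3 and -0.18 to 0.075 for Lamc1. None of the turned values passed the threshold, and the cause was not tested. Without sgControl replicate 1 and with the length and GC trend removed, Plec (0.076) and Cd151 (-0.073) had the direction found with all 5 libraries.

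Leaving out each library gave 234 to 3639 calls over all genes, where all 5 libraries gave 992, 1 to 5 members, where all 5 libraries gave 4, 0 to 8 other laminin and basement membrane genes, 1 to 6 receptors and tetraspanins, 3 to 10 plakins and keratin partners and 0 to 5 proteases. The count of 3639 came without sgControl replicate 1, and 603, 238 and 234 came without sgControl replicate 2, sgMef2d replicate 1 and sgMef2d replicate 2. With a single sgMef2d library, that library is assumed to vary like the sgControl group. Without sgControl replicate 1 and with the length and GC trend removed, 3078 genes passed, which was 24.9% of all genes. Among them were 6 members, 8 basement membrane genes, 6 receptors and tetraspanins, 9 plakins and keratin partners and 3 proteases. The other laminin and basement membrane genes past the threshold were 1 with the filter at 1 CPM, 1 in the legacy form and 1 in limma-voom, where Lama5 missed the threshold. The proteases numbered 2 with the length and GC trend removed and 2 with the replicate block. With that block the members numbered 5 and all genes 1254, Lama3 (0.34, adjusted p = 0.00144) and Dsp (0.48, adjusted p = 6.49e-07) passed, and Lama5 (-0.24, adjusted p = 0.0568) did not. Same-numbered libraries of the groups deviated together with correlations of 0.011 and -0.00092 over genes, so the numbers were taken as names only. Depth limits Col17a1, Krt5, Krt17 and Cd53, whose sgControl libraries held 17 counts or fewer.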

Other observations

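Of the basement membrane genes that were not named by the rule, Col4a6, whose chain assembles with that of Col4a5 in epithelial collagen IV, had 5.51, 8.79 and 5.86 CPM in sgControl and 3.83 and 4.44 CPM in sgMef2d, a log2 fold change of -0.68 (SE 0.225, adjusted p = 0.0926 by edgeR). The groups did not overlap, and the change did not pass the threshold. Col4a6 was chosen after its values were seen. Col4a1 and Col4a2, the collagen IV chains of most basement membranes, were not among the genes listed.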
